A study of Mus musculus with 8 samples.

Results

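The killing machinery of cytotoxic lymphocytes was followed in mouse liver through 8 genes: Gzma, Gzmb, Gzmk, Prf1, Nkg7, Ctsw, Fasl and Ifng. All probes that the deposited table assigns to these genes by symbol or Entrez gene ID were taken, 10 of the 56605 gene probes on the array, with Gzmk and Ctsw carrying 2 probes each. The thymectomised group (Tx) comprised 4 liver samples of female NFS/sld mice whose thymus had been removed on day 3 after birth, collected 8 weeks after that surgery. Its controls (nonTx) were 4 liver samples of female NFS/sld mice with an intact thymus, for which the labels give neither an age nor a sham operation. Neonatal thymectomy of this strain serves as a model of primary Sjögren's syndrome, so the whole animal, not a liver cell type, was manipulated. The replicates are called independent but are not tied to single animals, and the p-values therefore cover sample-to-sample spread alone, which may be technical.

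Cytotoxic T cells, natural killer (NK) cells and the type 1 innate lymphoid cells of the liver kill target cells in a pair of ways. They release granules that hold the pore-forming protein perforin (Prf1) and serine proteases called granzymes, or they display Fas ligand (Fasl), which engages the death receptor Fas on the target. The same cells secrete interferon gamma (Ifng), a cytokine that activates macrophages and antigen presentation. Liver is rich in such lymphocytes, but hepatocytes make up most of its RNA, and in whole tissue fewer cells of a type and less RNA per cell cannot be told apart.

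All 8 arrays lay on 1 slide, with the 4 Tx arrays in row 2 and the 4 nonTx arrays in row 1 per the file headers, so that slide row and group cannot be told apart. Between 51.1% and 55.5% of probes were well above background (a flag set by the scanner software for each spot) on Tx arrays, against 54.2% to 57.1% on nonTx arrays. The 75th percentile of the signal, to which each array was scaled on the log2 scale, lay between 224.8 and 330 for Tx and between 273.6 and 301.8 for nonTx. The precision is limited by the number of arrays, 4 per group.

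Transcripts of the granule core, Gzma, Gzmb and Prf1, stood at nearly the same mean level in Tx and nonTx livers, while the granule-associated genes Nkg7 and Ctsw and the effector genes Fasl and Ifng had lower means in Tx livers. Of the 10 probes, 8 were bright enough to be tested, which required a signal well above background on at least 3 of the 4 arrays of either group; the 8 covered 7 genes, all but Gzmk. None of the 8 passed the test over all probes (limma with Benjamini-Hochberg adjustment, threshold 0.05), and neither did any other probe on the array (0% of 30955). At an unadjusted p under 0.05 by limma, 2 of the 8 member probes, Fasl and Ifng, were lower and 0 were higher in Tx, where 6.03% of all tested probes were lower and 7.17% were higher. Both of these probes met the brightness requirement by their nonTx arrays alone, which favours a lower value in Tx, so their count supports nothing. The log2 difference was negative for 5 of the 8 member probes, against 47.4% of all tested probes, and its median was -0.32 over the 8 and 0.02 over all tested probes. Among the 5 member probes that were well above background on at least 3 Tx arrays, the median was 0.03.

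**Figure D1:**
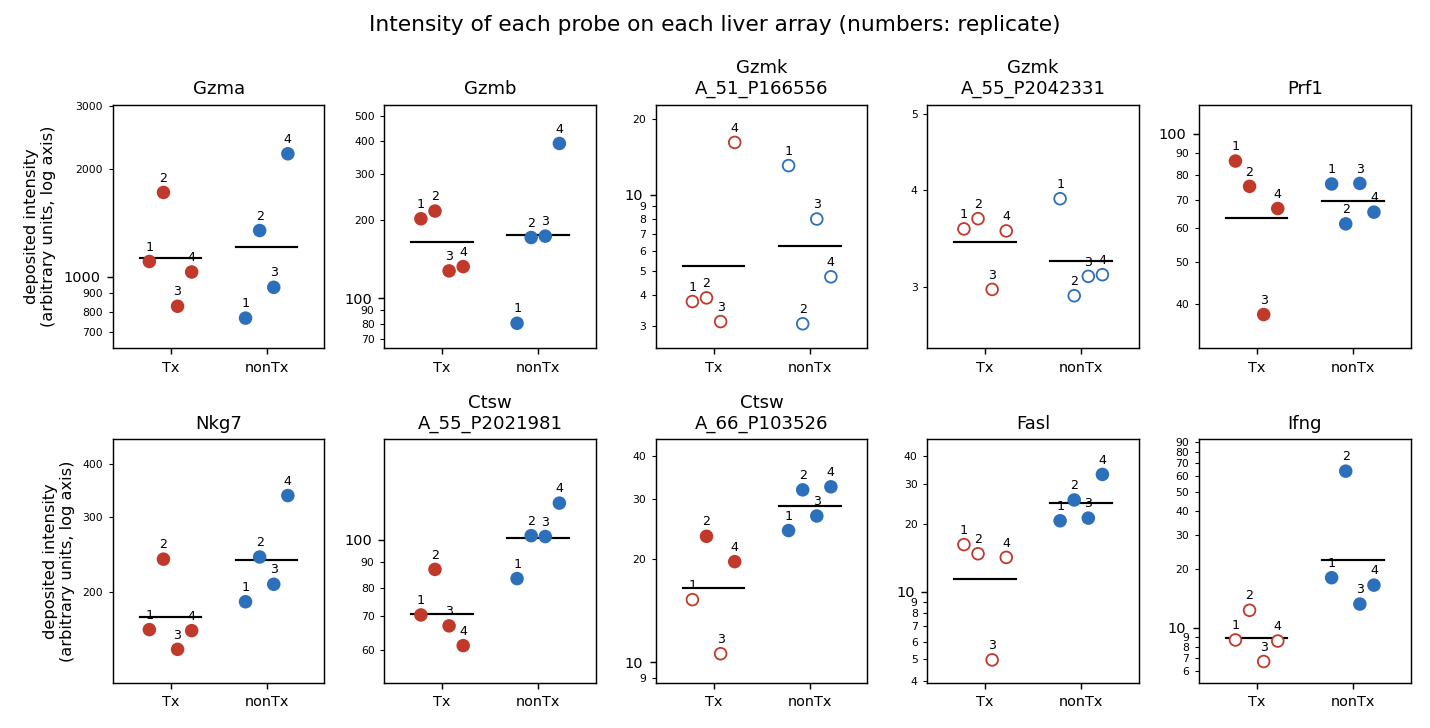
Deposited intensity (arbitrary units, log axis, a separate range in each panel) of all 10 probes on the 4 Tx (red, left) and 4 nonTx (blue, right) arrays. Points are single arrays numbered by replicate, filled where the probe was well above background and open where it was not, and black lines are geometric means. Gzma, Gzmb and Prf1 overlap between the groups, every Fasl and Ifng point of Tx is open, and both Gzmk probes are open on all 8 arrays.

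Granzymes are the serine proteases of the granule, and they enter a target cell through the perforin pore. Gzma encodes granzyme A, a trypsin-like protease that cuts after basic residues. Its intensity was 1104, 1720, 828.2 and 1032 on Tx replicates 1 to 4, against 767.4, 1347, 935.3 and 2205 on nonTx replicates 1 to 4. The groups overlapped: the highest array was nonTx replicate 4 and the lowest was nonTx replicate 1, with Tx replicate 2 the highest of its group. After scaling, Gzma averaged 2.14 ± 0.47 in Tx and 2.08 ± 0.73 in nonTx (log2 relative to the 75th percentile, SD, n = 4 each), a log2 difference of 0.06 ± 0.34 (SE). The 95% interval of the difference, -0.71 to 0.83, includes both a lower and a higher level in Tx. The adjusted p was 0.95 by limma.

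Gzmb encodes granzyme B, the protease that cuts after aspartate and activates caspases in the target cell. It read 201.6, 215.8, 127.4 and 132.3 on Tx replicates 1 to 4, against 80.33, 170.9, 173 and 391.3 on nonTx replicates 1 to 4. The nonTx arrays enclosed the whole Tx range, since nonTx replicate 1 was the lowest and nonTx replicate 4 the highest of all 8. Scaled log2 values averaged -0.63 ± 0.29 in Tx and -0.71 ± 0.99 in nonTx (SD, n = 4 each), and the log2 difference was 0.07 ± 0.41 (SE, 95% interval -0.84 to 0.98, adjusted p = 0.949 by limma). Single nonTx arrays decided its sign and size: without nonTx replicate 1 it was -0.33 and without nonTx replicate 4 it was 0.48. Leaving out Tx replicate 2 gave -0.07 for Gzmb. Gzma behaved alike, with log2 differences of -0.19 without nonTx replicate 1, 0.37 without nonTx replicate 4, -0.07 without nonTx replicate 3 and -0.15 without Tx replicate 2.

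Gzmk encodes granzyme K, a trypsin-like protease. Neither of its probes was well above background on any of the 8 arrays, so neither was tested and no fold is given. The probe for the RefSeq transcript, A_51_P166556, read 3.77, 3.9, 3.14 and 16.2 on Tx replicates 1 to 4, against 13.1, 3.07, 8.02 and 4.72 on nonTx replicates 1 to 4. The second probe, A_55_P2042331, lay between 2.98 and 3.67 on Tx arrays and between 2.93 and 3.89 on nonTx arrays. For Gzmk only a bound, a signal not well above background in either group, was measured.

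Prf1 encodes perforin, which forms the pore in the membrane of the target. It read 86.31, 75.3, 37.73 and 66.8 on Tx replicates 1 to 4, against 76.26, 61.51, 76.5 and 65.52 on nonTx replicates 1 to 4. The nonTx arrays lay close together and Tx replicate 3 stood below all other arrays before and after scaling; the highest array was Tx replicate 1 in intensity and Tx replicate 2 after scaling. Scaled log2 values averaged -2.01 ± 0.41 in Tx and -2.03 ± 0.11 in nonTx (SD, n = 4 each). The log2 difference was 0.03 ± 0.20 (SE), with a 95% interval from -0.41 to 0.47 and an adjusted p of 0.961 by limma. Without Tx replicate 3 the difference for Prf1 was 0.23. It was -0.06 without Tx replicate 2, -0.06 without Tx replicate 4 and -0.02 without nonTx replicate 2.

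Nkg7 encodes a membrane protein of cytotoxic granules that is needed for efficient granule release. It read 162.7, 238.3, 146.2 and 161.8 on Tx replicates 1 to 4, against 189.2, 241.1, 208 and 336.3 on nonTx replicates 1 to 4. Of the Tx arrays, 3 lay below every nonTx array in intensity, and the other, replicate 2, lay among the nonTx values. After scaling only Tx replicate 1 (-1.02) lay below the lowest nonTx array (-0.67). The log2 difference was -0.29 ± 0.24 (SE, n = 4 per group, 95% interval -0.83 to 0.24, adjusted p = 0.578 by limma). It was -0.11 without nonTx replicate 4, -0.14 without Tx replicate 1 and -0.45 without Tx replicate 2.

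Ctsw encodes cathepsin W, a papain-like cysteine protease found mainly in NK cells and CD8 T cells. Its brighter probe, A_55_P2021981, read 70.47, 87.05, 66.99 and 61.12 on Tx replicates 1 to 4, against 83.42, 101.8, 101.4 and 118.4 on nonTx replicates 1 to 4. The 2 groups overlapped through Tx replicate 2 and nonTx replicate 1. The log2 difference of this Ctsw probe was -0.35 ± 0.18 (SE, n = 4 per group, 95% interval -0.76 to 0.06, adjusted p = 0.424 by limma). The second Ctsw probe, A_66_P103526, read 15.22, 23.3, 10.58 and 19.65 on Tx replicates 1 to 4, against 24.22, 31.84, 26.71 and 32.5 on nonTx replicates 1 to 4. Here the intensities of the groups did not overlap, but the scaled values did, and 2 of the 4 Tx arrays, replicates 1 and 3, were not well above background. Its log2 difference was -0.64 ± 0.29 (SE, 95% interval -1.29 to 0.01, adjusted p = 0.384 by limma). The direction of both probes of Ctsw held without any 1 array, between -0.47 and -0.22 for the brighter probe and between -0.82 and -0.48 for the other. The second probe was tested through its nonTx arrays alone, which favours a lower value in Tx, so its direction adds no support. The brighter probe was at -0.22 without Tx replicate 1.

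Fasl encodes the ligand that triggers apoptosis through Fas. It read 16.15, 14.71, 4.98 and 14.17 on Tx replicates 1 to 4, against 20.6, 25.47, 21.17 and 33.07 on nonTx replicates 1 to 4. All 4 Tx arrays lay below all 4 nonTx arrays, before and after scaling, and 3.4% of all tested probes separated the groups in that direction. Fasl was well above background on 0 of 4 Tx arrays and on 4 of 4 nonTx arrays, so only a bound is given. On the means it was at least 1.47-fold lower in Tx, where each Tx array entered at a floor, its dimmest probe well above background. Where the Fasl signal itself was larger than this floor, that signal entered. The bound is a ratio of group means without sampling error and does not establish a difference. The measured means were -4.49 ± 0.71 in Tx and -3.53 ± 0.37 in nonTx (scaled log2, SD, n = 4 each), a difference of -0.96 ± 0.36 (SE, 95% interval -1.76 to -0.15). The unadjusted p was 0.0247 and the adjusted p 0.338 by limma, and the exact two-sided permutation test gave p = 0.0286, the smallest that the 70 splits of 4 against 4 allow. Without Tx replicate 3 the Fasl difference was -0.61. The Fasl probe was tested through its nonTx arrays alone, which favours a lower value in Tx. Its p-values and the lack of overlap therefore support nothing.

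Ifng encodes interferon gamma. It read 8.65, 12.29, 6.7 and 8.54 on Tx replicates 1 to 4, against 18.07, 63.77, 13.23 and 16.55 on nonTx replicates 1 to 4. The intensities did not overlap, but after scaling Tx replicate 2 (-4.34) lay above nonTx replicate 3 (-4.45). Ifng was well above background on 0 of 4 Tx arrays and 4 of 4 nonTx arrays. On the means it was at least 1.37-fold lower in Tx, again a bound without sampling error. That bound rests on nonTx replicate 2: without it the nonTx mean (-4.19) lay below the floored Tx mean (-4.12) and no bound remained. The measured means were -4.85 ± 0.41 in Tx and -3.67 ± 1.05 in nonTx (scaled log2, SD, n = 4 each), a difference of -1.19 ± 0.48 (SE, 95% interval -2.26 to -0.11). The unadjusted p was 0.0335 and the adjusted p 0.356 by limma, with p = 0.0571 by the exact two-sided permutation test. A single array weighed heavily, since the Ifng difference was -0.67 without nonTx replicate 2. The Ifng probe was likewise tested through its nonTx arrays alone, so its p-values support nothing.

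For both effector genes the signal was near the limit of the array. The lowest scaled signal that was well above background lay between -4.50 and -3.85 on the Tx arrays and between -4.54 and -4.23 on the nonTx arrays, so this limit was itself higher on some Tx arrays. The part of this limit in the Fasl and Ifng results was not tested. With signals set to that floor, the log2 differences were -0.55 ± 0.21 for Fasl (SE, unadjusted p = 0.0274, adjusted p = 0.345 by limma) and -0.45 ± 0.44 for Ifng (unadjusted p = 0.327, adjusted p = 0.661). With normexp background correction and its offset they were -0.06 for Fasl and -0.19 for Ifng.

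**Figure D2:**
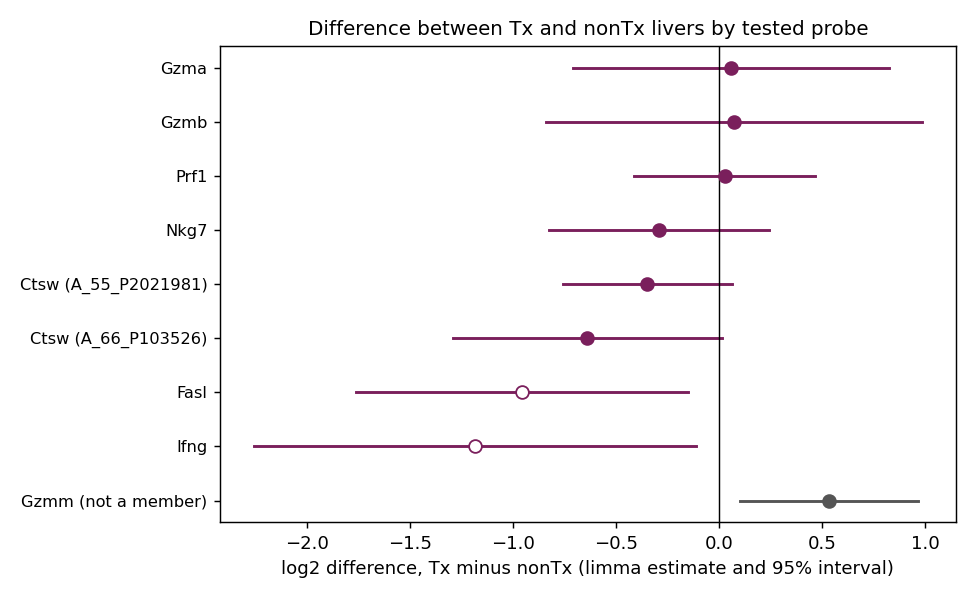
Log2 difference (Tx minus nonTx, limma estimate as a point, 95% interval as a line) of the 8 tested member probes, with granzyme M (Gzmm, grey) for comparison. Open points, Fasl and Ifng, were not well above background on any Tx array. Gzma, Gzmb and Prf1 lie within 0.08 of 0, the intervals of Nkg7 and Ctsw include 0, and no probe passed the adjusted test.

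Member genes also differed between arrays of 1 group. In the deviation from its mean over the 8 arrays, nonTx replicate 4 was the highest array for Gzma, Gzmb, Nkg7, both Ctsw probes and Fasl. Tx replicate 2 was the highest Tx array for Gzma, Gzmb, Prf1, Nkg7, both Ctsw probes and Ifng. The median deviation of the 8 probes was -0.46, 0.25, -0.43 and -0.02 on Tx replicates 1 to 4, against -0.09, 0.23, 0.02 and 0.63 on nonTx replicates 1 to 4. When Tx replicate 2 was left out, all 8 probes had a negative log2 difference, where the median over all tested probes was 0.02. None of the 8 passed over all probes (smallest adjusted p 0.227 by limma), while 188 probes of the array did. Leaving out the highest Tx array of a probe lowers its difference, so the signs in that fit support nothing.

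**Figure D3:**
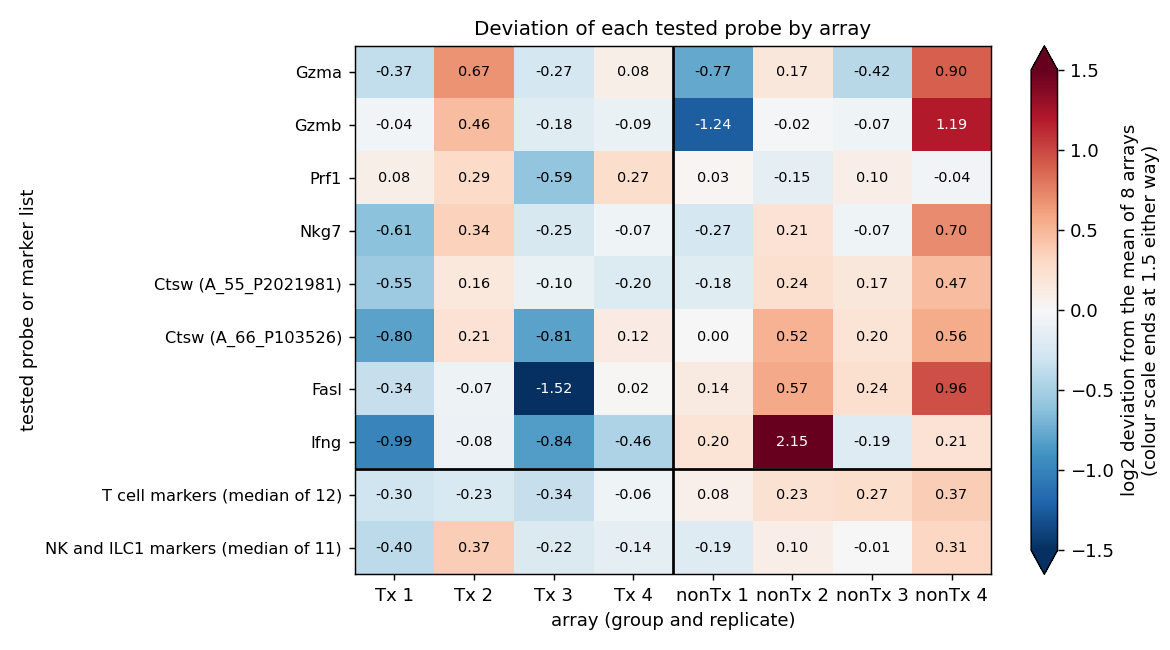
Deviation of the scaled log2 value from the mean of the 8 arrays, for each tested probe (rows) on each Tx (left 4 columns) and nonTx (right 4 columns) array, with the median deviation of the T cell and NK cell marker lists below. Gzma, Gzmb and Nkg7 are high on Tx replicate 2 and nonTx replicate 4, and Ifng is high on nonTx replicate 2 (2.15).

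Several member genes were high and low on the same arrays. Of the 28 pairs of tested member probes, 26 had a positive Pearson correlation over the 8 arrays, and 4 had an adjusted p under 0.05 by the exact permutation test. The pairs include that of the 2 Ctsw probes with each other. The share among all probe pairs of the array was not computed, so these counts only describe the member probes. Gzma and Gzmb correlated at r = 0.893 (adjusted exact p = 0.0167) and rho = 0.81 (adjusted exact p = 0.0762). Gzma and Nkg7 correlated at r = 0.869 (adjusted exact p = 0.0347) and rho = 0.81 (adjusted exact p = 0.0762). Nkg7 and the brighter Ctsw probe gave r = 0.925 (adjusted exact p = 0.0238) and rho = 0.857 (adjusted exact p = 0.0762), and the second Ctsw probe and Fasl gave r = 0.869 (adjusted exact p = 0.0167) and rho = 0.833 (adjusted exact p = 0.0762). No pair passed by both measures, and the unadjusted exact p-values of these 4 pairs lay at 0.00119, 0.00496, 0.00255 and 0.00119 for r. After the group means had been subtracted, the 4 correlations were 0.892, 0.964, 0.935 and 0.767, and without the 2 arrays farthest from the median of the gene named first they were 0.73, 0.593, 0.754 and 0.851. The second Ctsw probe, Fasl and Ifng were tested through their nonTx arrays alone, which favours positive correlations among them over the 8 arrays. The p-values of the second Ctsw probe with Fasl therefore support nothing. Prf1 had low correlations with both granzymes, 0.188 with Gzma and 0.086 with Gzmb (adjusted exact p = 0.818 and 0.913).

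Since Gzma correlated with both Gzmb and Nkg7 over the arrays, the promoters of these 3 genes are given, from 250 bases before to 50 after the annotated start (RefSeq, GRCm38.p6), as 1 run in the direction of the gene. Capitals mark matches on either strand to the Runx core TGTGGT, the T-box core GGTGTG, the AP-1 site TGANTCA and the STAT site TTCNNNGAA, which are motifs of factors known in cytotoxic lymphocytes. Gzma lies on the minus strand at chr13:113100932-113101231, Gzmb on the minus strand at chr14:56262285-56262584 and Nkg7 on the plus strand at chr7:43436888-43437187.
Gzma: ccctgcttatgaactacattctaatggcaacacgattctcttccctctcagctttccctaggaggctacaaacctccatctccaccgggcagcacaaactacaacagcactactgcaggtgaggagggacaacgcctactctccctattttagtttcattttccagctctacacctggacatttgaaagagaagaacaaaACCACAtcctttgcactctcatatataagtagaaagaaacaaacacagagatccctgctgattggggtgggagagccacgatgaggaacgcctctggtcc
Gzmb: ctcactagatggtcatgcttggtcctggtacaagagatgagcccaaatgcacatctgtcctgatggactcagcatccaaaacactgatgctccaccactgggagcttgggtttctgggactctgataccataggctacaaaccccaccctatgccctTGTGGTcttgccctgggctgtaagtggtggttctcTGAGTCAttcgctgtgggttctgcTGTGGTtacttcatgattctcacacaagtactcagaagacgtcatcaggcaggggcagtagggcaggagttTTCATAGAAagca
Nkg7: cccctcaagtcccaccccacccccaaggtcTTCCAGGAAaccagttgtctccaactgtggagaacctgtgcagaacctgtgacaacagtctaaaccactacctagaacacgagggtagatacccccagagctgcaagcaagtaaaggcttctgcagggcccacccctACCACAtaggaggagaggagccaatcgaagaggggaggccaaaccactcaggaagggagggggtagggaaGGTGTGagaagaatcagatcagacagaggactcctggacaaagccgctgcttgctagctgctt

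The Runx core was found once for Gzma (first base at -50 from the start), at 2 places for Gzmb (-93 and -34) and once for Nkg7 (-83). Prf1 held 1 Runx core (-130), and Gzmk, Fasl and Ifng held 0 in their windows. Of the 7 member genes with a promoter in the table, 4 thus held this core, as did 16.8% of the 32851 promoter windows of that length. Gzmb also held 1 AP-1 site at -58, a motif of 7.8% of windows, and 1 STAT site at 38 after the start. Nkg7 held 1 T-box core at -13 (19% of all windows) and 1 STAT site at -220 (8.3% of all windows). Such matches describe the letters of these windows and do not show binding.

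The genes whose scaled log2 values followed a member most closely over the 8 arrays were picked as the 3 with the highest Pearson correlation among 16495 genes, each by its brightest tested probe, so these values describe the picks and carry no test. For Gzma they were Batf, a transcription factor of activated lymphocytes (r = 0.981), Smc1b (r = 0.970) and Ctss, the lysosomal protease cathepsin S (r = 0.958). For Nkg7 they were Plcg2, a phospholipase of immune receptor signalling (r = 0.986), Nfam1, an immune receptor adaptor (r = 0.982), and Sash3, a lymphocyte adaptor (r = 0.979). The brighter Ctsw probe was followed most closely by Selplg, a selectin ligand of leukocytes (r = 0.978), Sike1 (r = 0.972) and H2-Eb1, an MHC class II chain (r = 0.964). Gzmb had Kcnk6 (r = 0.970), Ncoa7 (r = 0.954) and Klf15 (r = 0.945), with rank correlations of 0.738 for Kcnk6 and 0.690 for Klf15. For Prf1 they included Ankrd16 (r = 0.953) and Dnm1l (r = 0.946). Fasl was followed by Izumo1r, C230071I02Rik and Rnf20 (r = 0.984, 0.979 and 0.973), and Ifng by AW413774, Gm15455 and Mybpc1 (r = 0.973, 0.956 and 0.947). The second Ctsw probe was followed by Robo1, 1600010M07Rik and Ibsp (r = 0.982, 0.974 and 0.970). For the picks of all 8 probes, the correlation after subtraction of the group means stayed at 0.923 or above.

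The other mouse granzymes were mostly too dim to measure. Of 7 further granzyme genes on the array, 1 was tested, Gzmm, whose product granzyme M is a protease of NK cells that cuts after methionine or leucine. On its brighter probe Gzmm read 45.94, 31.37, 30.59 and 27.94 on Tx replicates 1 to 4, against 20.1, 29.41, 31.11 and 23.66 on nonTx replicates 1 to 4. The intensities overlapped, but after scaling all Tx arrays lay above all nonTx arrays, as 4.47% of all tested probes did. The log2 difference of Gzmm was 0.53 ± 0.19 (SE, n = 4 per group, adjusted p = 0.328 by limma), and the exact two-sided permutation test gave p = 0.0286, the smallest it can give. Its second probe, A_51_P337925, was flagged well above background on 0 of 8 arrays. Gzmc, Gzmd, Gzmf, Gzmg and Gzmn, whose genes lie in a cluster with Gzmb in the mouse, were not well above background on any of the 8 arrays. Gzme, of the same cluster, was well above background on 1 array, Tx replicate 1, where it read 48.81, against 7.71, 4.11 and 3.1 on Tx replicates 2 to 4 and between 2.37 and 3.21 on the nonTx arrays.

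Genes that act with the members were read from the same fit, as 7 lists of 76 genes, of which 75 were on the array and 61 were tested by their brightest probe. Of these, 33 were lower and 28 higher in Tx (43.7% of all tested genes were lower), with a median log2 difference of -0.03 against 0.03 over all tested genes. None of the 61 passed over all probes by limma. At an unadjusted p under 0.05 by limma 10 were lower and 5 were higher, where 5.25% of all 16495 genes were lower and 8.65% were higher (13.9% in either direction). The groups did not overlap for 6 genes that were lower and 3 that were higher, against 2.95% and 5.11% of all tested genes. Il18r1 and Il12rb2, which are among the lower genes in both counts, were tested through their nonTx arrays alone, which favours a lower value in Tx. Values below are those of a gene's brightest tested probe, and where other tested probes of the gene differ this is said.

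Of the 13 tested genes of granule storage, maturation and release, 10 were higher and 3 lower. Calr, a chaperone also found in cytotoxic granules, differed by 0.45 ± 0.13 (log2, SE, adjusted p = 0.291 by limma), and 1 probe of Snap23, a membrane fusion protein, by -1.49 ± 0.52 (adjusted p = 0.324). The other 3 tested Snap23 probes lay at 0.08 ± 0.10, -0.12 ± 0.09 and 0.09 ± 0.19. Among 4 tested inhibitors of granule proteases, 2 were higher and 2 lower, with Serpinb6a at 0.15 ± 0.09 (its other tested probes at 0.17 ± 0.10 and -0.45 ± 0.41) and Serpinb6b at 0.20 ± 0.16. Of the 15 tested death ligands, receptors and adaptors other than Fasl, 9 were lower and 6 higher. Tnf, the cytokine that signals through receptors with death domains, was at 0.62 ± 0.14 (adjusted p = 0.241) with no overlap between groups, and Ltb, a lymphotoxin chain, was at -0.40 ± 0.10 (adjusted p = 0.283), also without overlap. Fas itself, the receptor of Fasl, was at -0.01 ± 0.09.

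Of the 9 tested transcription factors of cytotoxic lymphocytes, 6 were lower and 3 higher in Tx. The brightest probe of Ikzf3, the zinc finger factor Aiolos, was at -1.10 ± 0.24 (log2, SE, adjusted p = 0.23 by limma), with every Tx array below the nonTx range. The other tested Ikzf3 probes overlapped between groups and had opposite signs, 0.24 ± 0.13 and -0.26 ± 0.18. Tbx21, which encodes T-bet, a factor that drives Ifng and granule genes, was at -0.58 ± 0.23 (adjusted p = 0.345). Of the 11 tested inducing cytokines and their receptors, 7 were lower and 4 higher. The receptor genes Il18r1, whose product receives a signal for Ifng production, and Il21r were at -1.27 ± 0.23 (adjusted p = 0.153) and -0.64 ± 0.17 (adjusted p = 0.283), both without overlap between groups. Il18r1 was well above background on 2 of 4 Tx arrays and 4 of 4 nonTx arrays, and a second Il21r probe was at -0.01 ± 0.15. For Il15ra, which presents interleukin 15 to NK cells, 1 probe was at 1.14 ± 0.33 (adjusted p = 0.295) and the other 2 were at -0.17 ± 0.14 and -0.11 ± 0.14. Of 8 genes of the interferon gamma receptor and its signalling, 6 were lower and 2 higher, with Socs1 at -0.50 ± 0.29 and Jak2 at -0.15 ± 0.09. Without Tx replicate 2, 3 of the related genes passed over all probes by limma, each by its brightest probe, where 0.607% of 30949 probes passed: Il15ra at 1.52 (adjusted p = 0.0061), Snap23 at -2.03 (adjusted p = 0.0445) and Calr at 0.57 (adjusted p = 0.0465). The other 2 Il15ra probes (-0.14 and -0.08) and the other 3 Snap23 probes (0.02, -0.17 and 0.03) did not pass in that fit. Among the Tx arrays, replicate 2 was the lowest for the Il15ra and Calr probes that passed and the highest for the Snap23 probe. Leaving it out thus enlarges each of these differences, so these passes support nothing. The share beside them is one of probes, not of genes.

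**Figure D4:**
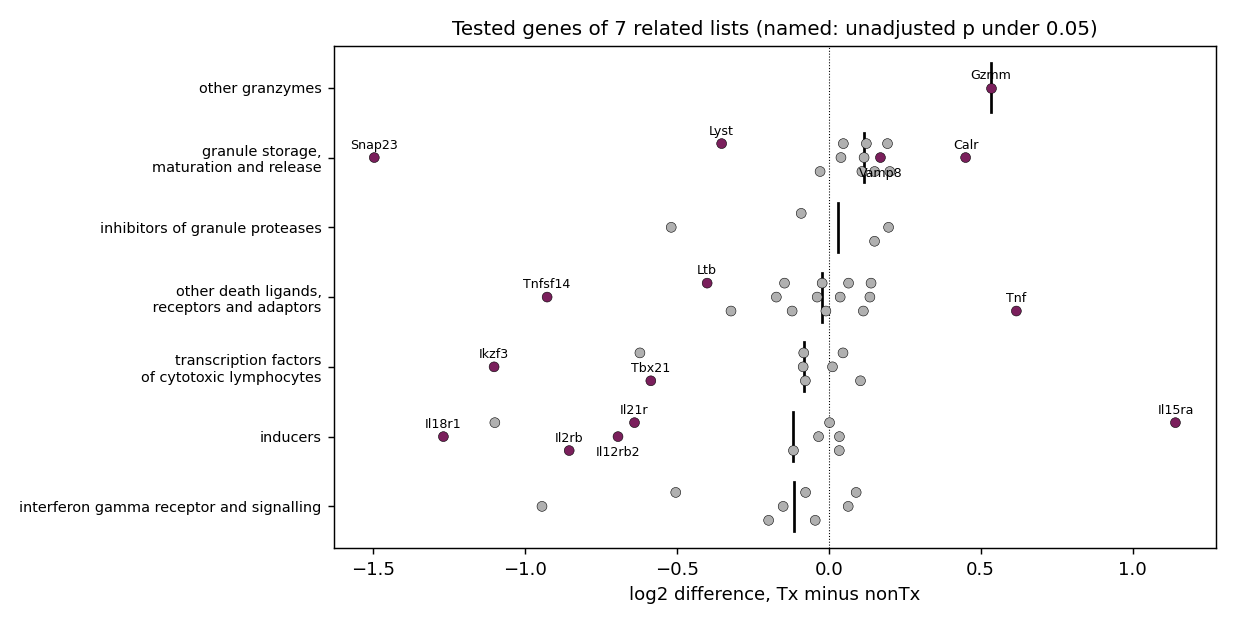
Log2 difference (Tx minus nonTx) of the 61 tested genes in 7 lists of related genes, 1 point per gene, with the list median as a black bar. Purple points are named and had an unadjusted p under 0.05 by limma, 10 to the left and 5 to the right of 0; none passed after adjustment.

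Markers of T cells and NK cells, which express the members, were read beside them. Of 12 T cell markers, all tested, 9 had a negative log2 difference (median -0.45), against 43.7% of all tested genes. Of these 9, 2 were tested through their nonTx arrays alone, which favours a lower value in Tx. At an unadjusted p under 0.05 by limma 7 of the 12 were lower, against 5.25% of all tested genes. Cd3d, a CD3 subunit, was at -1.17 ± 0.14 (adjusted p = 0.0577), and its second probe at -1.14 ± 0.18 (adjusted p = 0.102). The summed scaled signal of the T cell list ran from 27.5 to 41.4 on Tx arrays and from 27 to 29.7 on nonTx arrays (multiples of the 75th percentile). Its brightest probe, that of Cd4, was at 0.32 ± 0.18, and the other Cd4 probes were too dim to be tested. The next brightest, that of Cd247, was at 0.34 ± 0.26 (a second probe at -0.09 ± 0.21). Of the 17 NK cell and type 1 innate lymphoid markers 11 were tested, with a median log2 difference of -0.11. The difference was negative for 7 of the 11, and 2 of these 7 were tested through their nonTx arrays alone. At an unadjusted p under 0.05 by limma 3 were lower, 1 of which was tested through its nonTx arrays alone. Cd244a, an NK receptor, was at -0.77 ± 0.24 (adjusted p = 0.307; a second probe at -0.05 ± 0.15) and Klrd1, the CD94 chain, at -0.44 ± 0.14 (adjusted p = 0.313). The summed signal of the NK list ran from 25.2 to 40 on Tx arrays and from 26.2 to 41.3 on nonTx arrays. The brightest probes, those of Fcer1g (0.06 ± 0.19), Tyrobp (0.09 ± 0.21) and Ccl5 (-0.03 ± 0.12), weigh most in this sum. It therefore says little about the dimmer NK markers. Defining markers were near the limit: Ncr1 was well above background on 1 of 4 Tx and 3 of 4 nonTx arrays (log2 difference 0.23 ± 0.29), and Cd8a on 0 of 4 Tx and 3 of 4 nonTx arrays. Cd160, Itga2, Klra8, Klrb1a, Klre1 and Klri2 were not well above background on any array. The part of cell numbers in the member results was not tested.

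The median deviation of the NK marker list over the arrays was -0.40, 0.37, -0.22 and -0.14 on Tx replicates 1 to 4, against -0.19, 0.10, -0.01 and 0.31 on nonTx replicates 1 to 4. Its highest arrays, Tx replicate 2 and nonTx replicate 4, were those on which Gzma, Gzmb and Nkg7 were highest. The Kupffer cell list was also highest on these 2 arrays (0.39 and 0.21), as were the inhibitors of granule proteases (0.30 and 0.44). The pattern is thus not particular to NK markers. The median deviation of the T cell list lay between -0.34 and -0.06 on Tx arrays and between 0.08 and 0.37 on nonTx arrays. Lists of other cell types had medians of -0.0011 for 6 plasmacytoid dendritic cell genes, which can also carry Gzmb, 0.14 for 4 B cell genes, 0.07 for 6 Kupffer cell genes, 0.56 for 5 neutrophil genes, -0.32 for 2 mast cell genes, 0.04 for 6 hepatocyte genes and -0.09 for 2 red blood cell genes. In the neutrophil list Retnlg was at 0.90 ± 0.20 and S100a9 at 0.66 ± 0.23 (adjusted p = 0.247 and 0.322 by limma). Each of these lists had 0 genes past the adjusted threshold.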

How the data were processed

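Liver RNA of 4 Tx and 4 nonTx samples was hybridised to 1-colour Agilent arrays. Per the file headers, Feature Extraction 10.7.1.1 gave spot intensity after local background subtraction and spatial detrending; the submitters' processing notes name version 9.1. The deposited table repeats these intensities and holds log2 values, scaled per array and centred per probe by the authors as the values show. The deposited intensities of the members equalled the scanner values within 3.7e-07 of their size. The number of arrays limits the precision.

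Control spots were left out, outlier spots set to missing and spots of a probe averaged. Log2 intensity minus the 75th percentile of the array was tested with limma 3.58.1 in R 4.3.3 (variance trend, Benjamini-Hochberg over 30955 probes). Symbols were updated through Entrez IDs (43901 probes matched, 1276 symbols updated), and promoters were read with Python 3.11.15. Array headers name mm9 and the promoter table GRCm38.p6, so promoter positions alone are printed. The scripts were tested on simulated data. Named genes were all members, the 2 of each list with the smallest p, and others (Fas, Il12rb2, Il15ra, Cd4, Ncr1, Cd8a) chosen after their values were seen; some genes that this rule names are not reported here. The members and lists were chosen with earlier results of these data known. Alternatives covered background correction, scaling, filters, the variance model, array weights, the replicate block and each array left out; a slide block was not run, as there was 1 slide.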

Additional observations from a re-analysis of the deposited data

Results flagged for a closer look

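In a group of 4 arrays, a gap between the extreme array and its neighbour above Dixon's 95% critical value, as a share of the group's range, was taken as a sample far from the others, on the scaled log2 values of the member and other granzyme probes. Of 36 groups checked, 2 met it, which is near the 1 in 20 (5%) that chance gives. The Gzmk probe A_51_P166556 had Tx replicate 4 far above the other Tx arrays (intensity 16.2, gap 0.83 of the range), and Gzmf had nonTx replicate 2 far above the other nonTx arrays (7.74, gap 0.839). Neither signal was well above background.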

How the results depend on the processing

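No member probe passed over all probes under any of the 21 alternative fits tried, and the median log2 difference of the 8 member probes kept its sign, from -0.46 to -0.07, the latter with normexp. The count of probes called on the array, 0 in the main setting, was 2 with normexp, 6 with scaling to the median (which moved the median of all probes to 0.12), 1 with the authors' log2 values, 1 without a variance trend, 5 with robust variance, 7 with array weights and 1 with the replicate block. Leaving out single arrays gave from 0 to 188 called probes and from 0 to 3 called related genes, the highest of both without Tx replicate 2; the cause was not tested. The log2 difference of Nkg7, both Ctsw probes, Fasl and Ifng stayed negative throughout. Of these, the second Ctsw probe, Fasl and Ifng were tested through their nonTx arrays alone, which favours a negative difference. That of Gzma (from -0.19 to 0.37 over single arrays left out), Gzmb (from -0.33 to 0.48) and Prf1 (from -0.06 to 0.23) changed sign: Gzma was -0.15, -0.19 and -0.07 without Tx replicate 2, nonTx replicate 1 and nonTx replicate 3, Gzmb was -0.07 and -0.33 without Tx replicate 2 and nonTx replicate 1, and Prf1 was -0.0649, -0.0577 and -0.0172 without Tx replicate 2, Tx replicate 4 and nonTx replicate 2. Over the array as a whole, same-numbered arrays, which also share a slide column, did not deviate together (correlations from -0.01 to 0.10). Not every array correlated best with its own number. These correlations do not describe the member probes alone. With the replicate block the adjusted p of Fasl was 0.32 and that of Ifng 0.315. In that fit 4 of the 8 member probes had an unadjusted p under 0.05 by limma, where 13.1% of all tested probes did. In the main setting 2 of the 8 did, against 13.2%. The 4 were both Ctsw probes, Fasl and Ifng, of which all but the brighter Ctsw probe were tested through nonTx arrays alone. The dim signal limits Fasl, Ifng, Gzmk and the second Ctsw probe.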

Other observations

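A further probe, A_51_P196703, is described as perforin but carries neither a symbol nor an Entrez ID and is therefore not a member. It read 19.96, 9.85, 2.85 and 13.05 on Tx replicates 1 to 4, against 8.11, 11.06, 8.05 and 13.72 on nonTx replicates 1 to 4, and was well above background on 1 of the 8 arrays, Tx replicate 1.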
